A study of Mus musculus with 6 samples.

Results

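The nuclear genes of respiratory complex I were followed in ribosome-bound RNA and total RNA of the mouse preoptic area. The genes were selected by their symbol, as protein-coding entries of the deposited table whose name begins with Nduf, and 48 of the 27884 genes of the table met this rule. They comprise 7 core subunits, 30 accessory subunits, 8 assembly factors (Ndufaf1 to Ndufaf8) and 3 genes that carry the symbol without belonging to these classes (Ndufa4, Ndufa4l2 and Ndufb11b). No measured value entered the rule, but the family was singled out with the difference between ribosome-bound and total RNA already known. Its fold changes and calls are therefore given as a description of these libraries.

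Both groups came from the preoptic area of NuTRAP::Pnoc-Cre females aged 17 to 18 weeks. NuTRAP is an allele that puts EGFP on the ribosomal protein L10a in cells that express Cre, and Pnoc-Cre directs Cre to cells that make, or earlier made, prepronociceptin, the precursor of the peptide nociceptin. Each of 3 replicates pooled the tissue of 3 animals, and from each pool 1 library was made from total RNA (input) and 1 from RNA bound to tagged ribosomes, purified with an antibody against GFP (IP), after poly(A) selection in every library. All animals carry the same alleles, so that the groups differ by the RNA fraction and not by genotype. Total counts lay between 48204567 and 53056642 per library, and a count of 3 corresponds to between 0.0551 and 0.0651 CPM, the count scaled by the size of the library.

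Complex I, or NADH:ubiquinone oxidoreductase, is the entry point of electrons from NADH into the respiratory chain, and it pumps protons across the inner mitochondrial membrane. Its core subunits do the chemistry: those of the matrix arm are encoded in the nucleus and those of the proton-pumping membrane arm in the mitochondrial genome. Accessory subunits surround this core, and assembly factors build the complex but are absent from the finished enzyme. Neurons depend on oxidative phosphorylation for the ion pumping that firing demands.

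Of the 48 genes 47 passed the low-count filter, and 38 of these were higher in IP, 0 were lower and 9 did not pass the threshold (edgeR's quasi-likelihood test, Benjamini-Hochberg adjusted p under 0.05 over 18640 genes). Over all genes tested 12.9% were called higher and 17.1% lower. The median log2 fold change, IP over input, was 0.96 for the 47 Nduf genes, with a range from -0.58 to 1.72, and -0.07 for all genes tested. Among the called genes 22 were at least 2-fold higher and 16 were below that fold. In 39 Nduf genes every IP library stood above every input library, namely the 38 called genes and Ndufaf3, against 21.7% of all genes tested. The difference had a positive sign within each of the 3 pools for 42 of the 47, and the share over all genes was not computed. In the fit itself the sign was positive for 44 of the 47 Nduf genes and for 8716 of the 18640 genes tested. Ndufb11b, the gene that was not tested, was at 0 CPM in 5 libraries and at 0.11 CPM in input replicate 2.

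The 3 classes differed in the size of the change. Accessory subunits had a median log2 fold change of 1.13 with 28 of 30 called higher, core subunits 0.61 with 5 of 7, and assembly factors 0.71 with 4 of 8. Values overlapped widely between classes, from 0.25 to 1.67 in accessory subunits, from 0.07 to 1.14 in core subunits and from -0.03 to 1.02 in assembly factors. No test of the difference between classes was made.

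**Figure D1:**
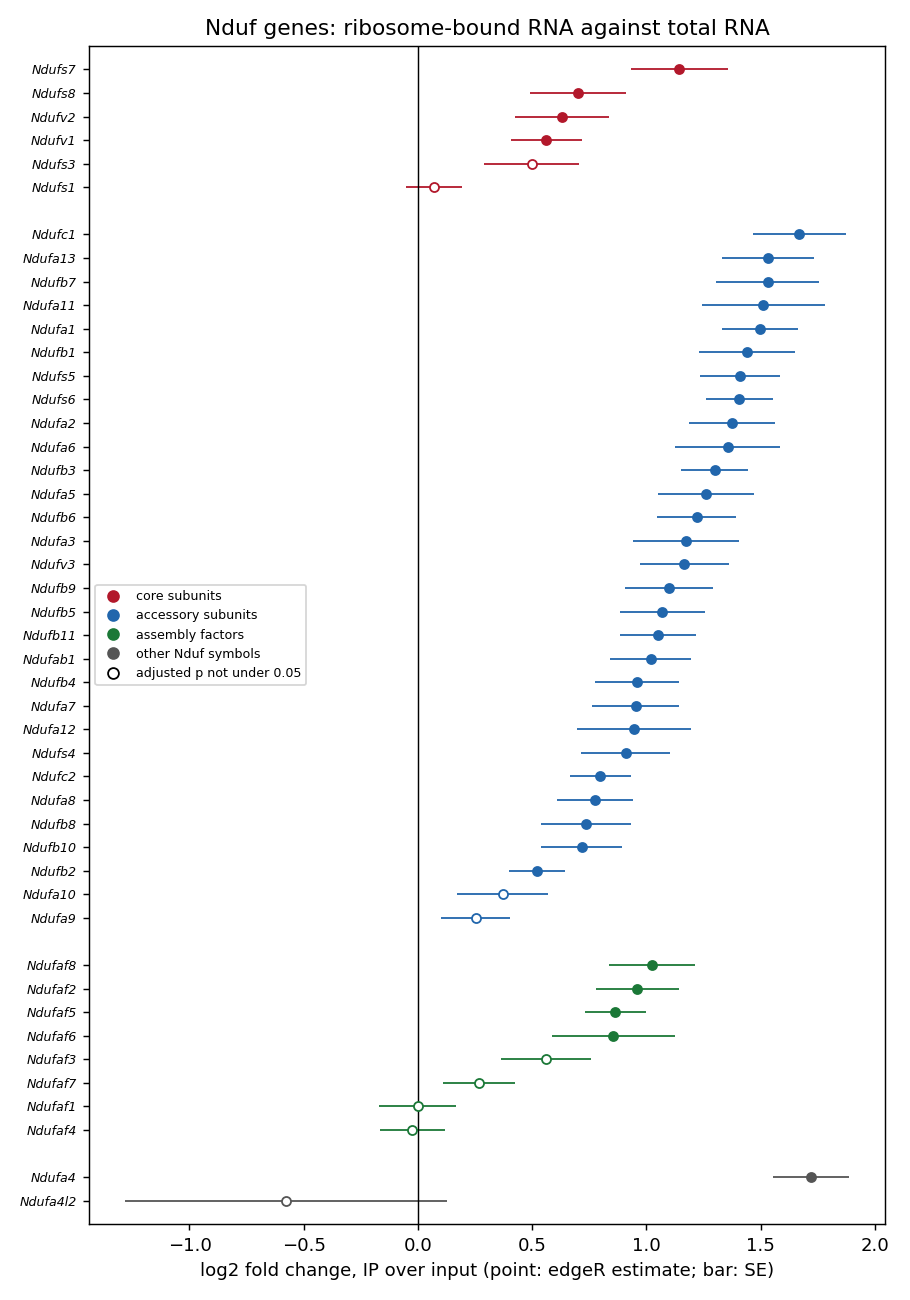
Log2 fold change, IP over input, of 46 of the 47 tested Nduf genes (horizontal axis), ordered within core, accessory, assembly and other classes, with the edgeR estimate as a point and its SE as a bar. Accessory subunits reach from 0.25 (Ndufa9) to 1.67 (Ndufc1), and Ndufs1, Ndufaf1 and Ndufaf4 lie close to 0.

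Short stretches of the promoters of 6 members are shown first, because their levels are given below and because the 6 share a motif. Promoter windows of 300 bases (250 before to 50 after the start, RefSeq, GRCm38.p6) were found for 41 of the 48 genes. The letters AAGATGGCG, a motif of the factor YY1, stand in capitals, and each stretch reads in the direction of the gene. All 6 matches lie from 10 to 35 bases after the start, on the gene's own strand.
Ndufc1 (chr3:51408914-51408943, minus strand): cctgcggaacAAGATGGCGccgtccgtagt
Ndufs7 (chr10:80249463-80249492, plus strand): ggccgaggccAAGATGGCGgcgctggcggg
Ndufs6 (chr13:73328433-73328459, minus strand): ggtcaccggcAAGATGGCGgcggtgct
Ndufs4 (chr13:114388045-114388069, minus strand): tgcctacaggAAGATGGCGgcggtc
Ndufaf8 (chr11:120098934-120098963, plus strand): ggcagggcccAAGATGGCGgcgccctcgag
Ndufa9 (chr6:126849096-126849125, minus strand): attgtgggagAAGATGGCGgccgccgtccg

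These letters were found on either strand in 6 of the 41 Nduf genes with a promoter window (14.6%). The share was 3.05% of the 11768 tested genes with a window and 1.64% of all 27025 genes with a window. The letters contain ATG, and in Ndufc1, Ndufs7, Ndufs6 and Ndufs4 this was the annotated start codon of every coding transcript in GENCODE M39. In Ndufa9 it was the start codon of 9 of 10 coding transcripts, and in Ndufaf8 of 0 of 4. The 6 genes ran from a log2 fold change of 0.25 (Ndufa9) to 1.67 (Ndufc1), with a median of 1.08, beside 0.96 for the 35 members whose window lacks the letters. A match describes the letters and not a bound site.

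NRF1 is a factor known to act on many respiratory genes, and its motif searched here was GCGCATGC. On either strand the motif stood in 5.49% of the tested genes and 3.05% of all genes with a window. It was found in 5 of the 41 Nduf genes with a window (12.2%). It is shown for the 3 subunits among these genes, as the 150 bases before the start. Capitals mark the motif, which lies 60, 83 and 8 bases before the start and in Ndufa11 overlaps its copy on the other strand.
Ndufa11 (chr17:56717612-56717761, plus strand): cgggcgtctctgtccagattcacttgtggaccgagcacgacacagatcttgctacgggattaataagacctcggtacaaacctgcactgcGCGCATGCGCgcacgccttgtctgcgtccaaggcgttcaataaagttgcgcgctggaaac
Ndufa6 (chr15:82354292-82354441, minus strand): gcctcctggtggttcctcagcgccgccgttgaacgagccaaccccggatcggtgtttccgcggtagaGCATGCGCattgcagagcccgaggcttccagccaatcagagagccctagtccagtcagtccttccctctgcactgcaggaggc
Ndufa8 (chr2:36049339-36049488, minus strand): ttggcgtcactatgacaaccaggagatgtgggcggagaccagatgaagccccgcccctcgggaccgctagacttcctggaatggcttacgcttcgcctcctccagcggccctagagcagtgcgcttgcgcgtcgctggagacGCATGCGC

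The 5 genes with the NRF1 motif, which include the assembly factors Ndufaf4 and Ndufaf5, had log2 fold changes from -0.03 to 1.51 and a median of 0.86, beside 0.99 for the 36 without. The ETS motif CCGGAAG stood in 14.6% of Nduf promoters and 17.6% of those of tested genes. The CCAAT box stood in 34.2% and 42.5%.

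The matrix arm holds the 7 core subunits, which split into the N module, where NADH is oxidised, and the Q module, where ubiquinone is reduced. Ndufv1 (chromosome 19) carries the flavin that takes electrons from NADH. It read 280, 291 and 217 CPM in IP replicates 1 to 3 and 154, 198 and 182 CPM in input replicates 1 to 3. Every IP library was above every input library, with IP replicate 3 closest to the input values. The log2 fold change was 0.56 ± 0.16 (SE, n = 3 per group; adjusted p = 0.0276), 1.48-fold. Ndufv2, which holds an iron-sulphur cluster beside the flavin, read 397, 402 and 386 CPM in IP and 176, 326 and 264 CPM in input. Its IP libraries were nearly level while its input libraries spread further than the difference between the group means, and the log2 fold change of 0.63 ± 0.20 had an adjusted p of 0.0479. Ndufs1, the largest subunit of the arm and a carrier of several iron-sulphur clusters (chr1:63182755-63215992, mm39), read 141, 141 and 124 CPM in IP and 122, 139 and 126 CPM in input. The groups overlapped, and the log2 fold change was 0.07 ± 0.12 (adjusted p = 0.708).

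In the Q module Ndufs7, which carries the last iron-sulphur cluster before ubiquinone (chr10:80084955-80092628, mm39), read 279, 302 and 322 CPM in IP and 96.4, 180 and 132 CPM in input. All 3 IP libraries stood well above the highest input library. Its mean of 301 ± 21.1 CPM (SD, n = 3) against 136 ± 41.8 CPM gave a log2 fold change of 1.14 ± 0.21 (adjusted p = 0.00553), and it had the highest fold of the 7 core genes. Ndufs8, an iron-sulphur protein next to Ndufs7, read 156, 187 and 149 CPM in IP and 73.7, 132 and 97.7 CPM in input. IP replicate 3 and input replicate 2 came near each other, and the log2 fold change was 0.70 ± 0.21 (adjusted p = 0.0373). Ndufs3, a structural subunit of the module, read 162, 177 and 135 CPM in IP and 86.9, 148 and 101 CPM in input, where input replicate 2 exceeded IP replicate 3. Its log2 fold change was 0.50 ± 0.21 (adjusted p = 0.106).

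Of the 5 core genes called, only the call of Ndufs7 held without any single library, and leaving out input replicate 3 ended the other 4 calls. Ndufs8 lost the call in 5 of 6 such fits, with adjusted p from 0.0532 to 0.125, and kept it without input replicate 2. Ndufv1 lost it in 4, without input replicates 1 and 3 or IP replicates 1 and 2 (0.0513 to 0.101). Ndufv2 lost it in 4, without input replicate 3 or any IP library (0.101 to 0.123). Ndufs3 gained the call without input replicate 2 (0.0152). The sign of these 5 genes was positive in each of those fits.

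Accessory subunits gave the highest values of the complex. Ndufc1, a small subunit of the proximal membrane arm (chr3:51312098-51316409, mm39), read 198, 169 and 268 CPM in IP and 53.8, 72.4 and 73.4 CPM in input. Even the lowest IP library exceeded the highest input library by far, and the log2 fold change was 1.67 ± 0.20 (adjusted p = 0.000948), 3.18-fold. Ndufa13, also known as GRIM-19, read 288, 282 and 326 CPM in IP and 75.4, 132 and 103 CPM in input. Its groups were as clearly apart, at 1.53 ± 0.20 (adjusted p = 0.00129). Ndufb7, a subunit of the intermembrane-space side of the distal membrane arm, read 258, 259 and 307 CPM in IP and 63.9, 120 and 102 CPM in input. Here too IP replicate 3 was highest and input replicate 1 lowest, and the log2 fold change was 1.53 ± 0.22 (adjusted p = 0.00202).

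The 3 accessory subunits with the smallest differences were Ndufb2, Ndufa10 and Ndufa9. Ndufb2, a small membrane subunit, read 43.5, 40.5 and 43.2 CPM in IP and 28.4, 30.4 and 29.8 CPM in input. The libraries of each group lay close together, so that a log2 fold change of 0.52 ± 0.12 passed the threshold (adjusted p = 0.0142), although not without input replicate 3 or IP replicates 1 or 3 (0.0509 to 0.0567). Ndufa10, a relative of nucleoside kinases, read 254, 319 and 271 CPM in IP and 163, 279 and 211 CPM in input. Input replicate 2 exceeded 2 of the 3 IP libraries, and 0.37 ± 0.20 did not pass (adjusted p = 0.196; 0.039 without input replicate 2). Ndufa9, a relative of short-chain dehydrogenases at the junction of the arms (chr6:126798684-126826099, mm39), read 119, 125 and 91.1 CPM in IP and 88.9, 101 and 91.6 CPM in input. The groups overlapped through IP replicate 3, at 0.25 ± 0.15 (adjusted p = 0.247).

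The other 24 accessory subunits were all called higher, with log2 fold changes from 0.72 (Ndufb10) to 1.51 (Ndufa11). Ndufa11, Ndufa1, Ndufb1, Ndufs5, Ndufs6, Ndufa2, Ndufa6 and Ndufb3 followed the top 3 in this order, from 1.51 ± 0.27 to 1.30 ± 0.15. Neighbours in the order differed by less than their SE. Ndufs6, a zinc-binding subunit of the N module, had the smallest adjusted p of the accessory subunits (0.000434), with IP at 129 ± 6.13 CPM and input at 48.8 ± 7.25 CPM (SD, n = 3). Ndufs4, whose loss in mice causes a Leigh-like encephalopathy, had 156 ± 4.40 CPM in IP and 83.1 ± 23.2 CPM in input, a log2 fold change of 0.91 ± 0.19 (adjusted p = 0.00979; 0.0518 without input replicate 3). Ndufab1, the mitochondrial acyl carrier protein, had 1.02 ± 0.18 (adjusted p = 0.00423). In 3 of these 24 genes several single libraries ended the call. Ndufa12 lost it without replicate 2 of either fraction or replicate 3 of IP (adjusted p from 0.0557 to 0.0839). For Ndufb8 this happened without input replicate 3 or replicates 1 or 2 of IP (0.0512 to 0.086), and for Ndufb10 without input replicate 3 or replicates 2 or 3 of IP (0.0565 to 0.0618). No single library ended the call of the remaining 20.

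By position in the complex, the nuclear subunits of the membrane arm gave the higher medians. In the proximal membrane arm 8 of 9 were called higher with a median log2 fold change of 1.41, and in the distal membrane arm, made of the Ndufb subunits, 11 of 11 with 1.07. The N module had 7 of 8 and a median of 0.93, the Q module 4 of 5 and 0.70, and the 4 subunits at the interface or not assigned 3 of 4 and 0.99. All nuclear core subunits lie in the N and Q modules, so that class and position are not independent. The positions also differ in median coding length: 360 bases in the proximal arm, 411 in the distal arm, 634.5 in the N module and 672 in the Q module. With the length and GC correction described below, their median log2 fold changes were 1.06, 0.95, 0.87 and 0.46 in the same order. The accessory members of those modules, Ndufs6 (1.41), Ndufa2 (1.37), Ndufa5 (1.26) and Ndufv3 (1.17), stood above each of the core subunits, Ndufa5 and Ndufv3 by less than their SE, while Ndufa12 (0.95) and Ndufs4 (0.91) stood below Ndufs7.

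Of the 8 assembly factors 4 were called higher. Ndufaf8, a partner of Ndufaf5 (chr11:119989754-119991531, mm39), read 28.3, 23.0 and 34.9 CPM in IP and 12.5, 15.3 and 14.6 CPM in input. All IP libraries were higher, at 1.02 ± 0.19 (adjusted p = 0.00548). Ndufaf2, a paralogue of the subunit Ndufa12 that holds its place during assembly, read 47.0, 44.9 and 49.6 CPM in IP and 18.5, 29.0 and 25.2 CPM in input. Its groups were apart as well, at 0.96 ± 0.18 (adjusted p = 0.00579). Ndufaf5, which hydroxylates Ndufs7, averaged 92.1 ± 2.18 CPM across the IP libraries and 50.6 ± 6.39 CPM across the input libraries (SD, n = 3), at 0.86 ± 0.14 (adjusted p = 0.00271). Ndufaf6 had the same fold with more spread, 0.86 ± 0.27 (adjusted p = 0.0435), and lost the call without input replicate 3 or any IP library (0.0741 to 0.104).

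The other 4 assembly factors did not pass. Ndufaf4, which acts on the Q module, read 54.5, 59.8 and 52.1 CPM in IP and 55.3, 64.3 and 49.6 CPM in input, and Ndufaf1, a factor of the membrane arm, read 25.2, 30.5 and 24.7 CPM in IP and 22.3, 30.3 and 27.7 CPM in input. Replicate 2 was the highest library of each group for both genes, and the groups overlapped fully. The log2 fold change of Ndufaf4 was -0.03 ± 0.14 (adjusted p = 0.912). With the correction for transcript length and GC content described below it was 0.38 (adjusted p = 0.0627). With the replicate block added to that correction it was 0.39, which passed (adjusted p = 0.0271). Ndufaf1 averaged 26.8 CPM in both groups (adjusted p = 0.999). Ndufaf7, a methyltransferase, had 0.27 ± 0.16 (adjusted p = 0.244). Ndufaf3, which acts together with Ndufaf4, read 77.7, 65.1 and 65.8 CPM in IP and 35.3, 59.8 and 46.2 CPM in input. Its groups did not overlap, but 0.56 ± 0.20 missed the threshold (adjusted p = 0.0629; 0.0171 without input replicate 2), and the authors' deposited table lists it at 0.59 with an adjusted p of 0.0292. It is the 1 gene by which that table's count of 39 Nduf genes higher exceeds the 38 given here, and that table also has 0 lower.

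Among the genes that carry the symbol without being complex I genes, Ndufa4 had the highest fold of the whole set. Ndufa4 was once counted to complex I and is now assigned to cytochrome c oxidase (complex IV). It read 657, 614 and 759 CPM in IP and 162, 224 and 230 CPM in input (chr6:11900291-11907496, mm39). The lowest IP library was far above the highest input library, and the log2 fold change was 1.72 ± 0.17 (adjusted p = 0.000317), 3.30-fold. Its paralogue Ndufa4l2, known as a hypoxia-induced gene, read 1.13, 0.694 and 0.846 CPM in IP and 0.348, 2.59 and 1.04 CPM in input. These low levels overlapped and scattered most in input, with a log2 fold change of -0.58 ± 0.70 (adjusted p = 0.578).

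The libraries of 1 fraction moved together across the family. Summed over the Nduf genes, input replicates 1, 2 and 3 held 3279, 5036 and 4302 CPM, and IP replicates 1, 2 and 3 held 8184, 8132 and 8701 CPM. Input replicate 1 was the lowest input library for 45 of 47 genes and input replicate 2 the highest for 43 of 47, which held for 40.7% and 36.6% of all genes tested. The IP libraries showed a less uniform order, with replicate 3 highest for 26 genes and replicate 2 lowest for 24. The fold therefore differed by pool: the median log2 ratio of IP over input, on log2(CPM + 0.1), was 1.38 in replicate 1, 0.63 in replicate 2 and 1.04 in replicate 3. Core subunits had 0.90, 0.51 and 0.49, accessory subunits 1.50, 0.75 and 1.18, and assembly factors 1.09, 0.34 and 0.55. Genes of the family share these libraries, so that their counts are not independent of one another.

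**Figure D2:**
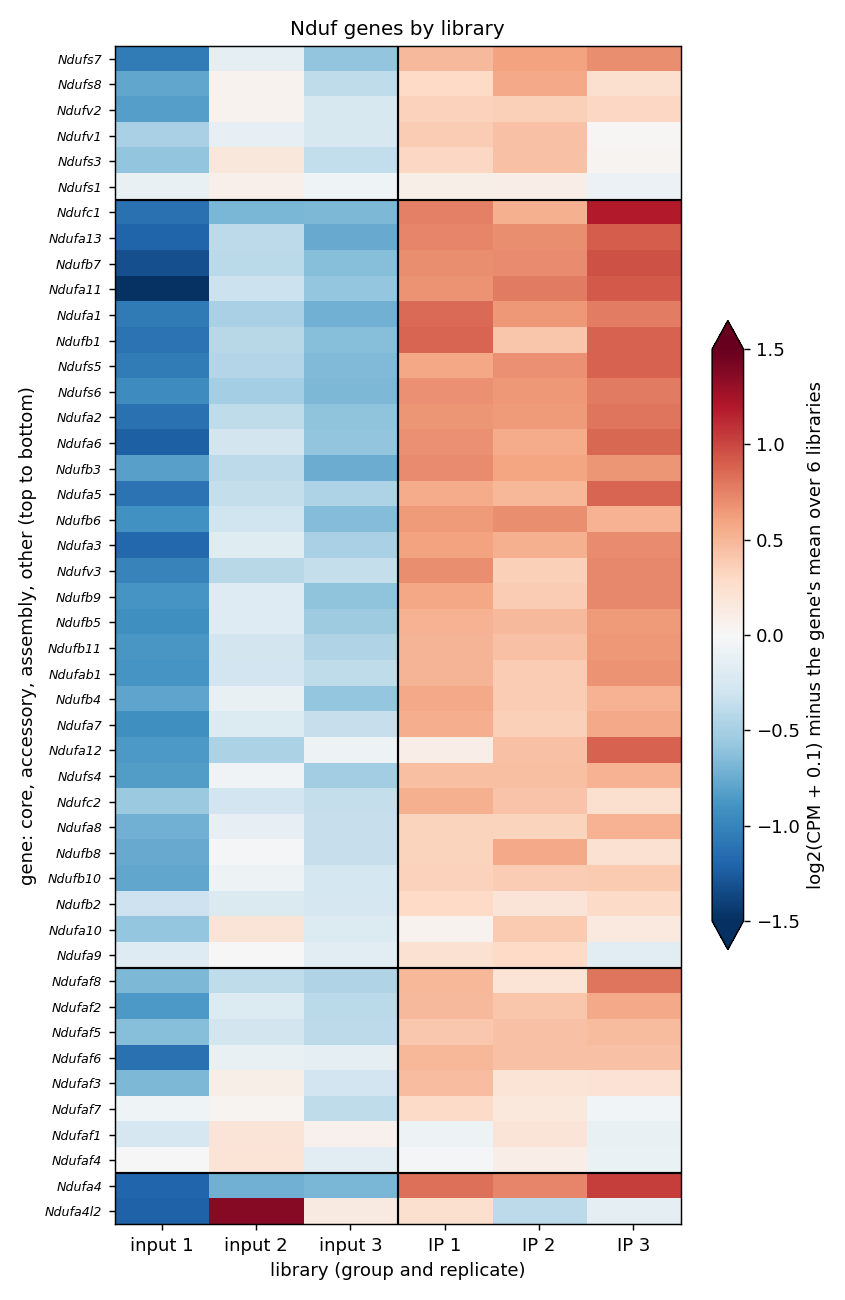
Each row is 1 of 46 Nduf genes and each column a library (3 input, 3 IP); the colour is log2(CPM + 0.1) minus the gene's mean over the 6 libraries. Input replicate 1 is the lowest column for most genes, and the rows of Ndufs1, Ndufaf1 and Ndufaf4 change little between the groups.

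With the replicate number as a block, which compares the fractions within a pool, 41 Nduf genes were called higher, where 15.2% of all genes were. The 3 added were Ndufs3 (log2 fold change 0.53, adjusted p = 0.0245), Ndufaf3 (0.59, 0.0349) and Ndufa10 (0.40, 0.05 after rounding). Without both libraries of replicate 3 the calls fell to 5 Nduf genes and to 0.705% of the 18870 genes then tested, while the Nduf median was 0.95. The 5 were Ndufa4 (adjusted p = 0.022), Ndufc1 (0.0306), Ndufs6 (0.0361), Ndufa1 (0.0423) and Ndufb3 (0.0451). Without both libraries of replicate 1, 33 Nduf genes and 2041 of all genes tested were called higher. Without both of replicate 2 the numbers were 34 and 1508. With 1 library left out at a time the number of Nduf genes called higher lay between 29 (without input replicate 3) and 40 (without input replicate 2).

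The 7 core subunits of the mitochondrial genome went the other way, with 7 of 7 lower in IP. These mt-Nd transcripts are translated by mitochondrial ribosomes, which lack the tagged L10a. Their summed level was 12056 to 18952 CPM in the input libraries and 218 to 391 CPM in the IP libraries. The median log2 fold change was -5.96, with mt-Nd4l below it. mt-Nd1 read 85.4, 96.2 and 159 CPM in IP and 3534, 5323 and 4630 CPM in input, -5.31 ± 0.30 (adjusted p = 3.07e-05), the smallest difference of the 7. For mt-Nd4l the IP libraries had 3, 0 and 0 counts and the input libraries 342, 384 and 258, and no fold is given. Input replicate 1 was again the lowest input library in the sum. Nuclear copies of mitochondrial genes may take part of these reads.

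Assembly factors without an Nduf symbol were listed from knowledge of the pathway. Of 9 in the table, 4 were higher (Dmac1, Ecsit, Tmem126b and Timmdc1) and 1 lower, with a median log2 fold change of 0.43. Dmac1, a factor of the distal membrane arm, had 51.3 ± 6.71 CPM in IP and 27.2 ± 2.29 CPM in input (SD, n = 3), 0.91 ± 0.15 (adjusted p = 0.0032). Acad9, an acyl-CoA dehydrogenase that serves in assembly with Ndufaf1 and Ecsit, read 13.9, 16.2 and 10.3 CPM in IP and 26.3, 26.1 and 27.2 CPM in input. It was lower in every IP library, at -0.98 ± 0.19 (adjusted p = 0.00656), while its partner Ecsit was higher (0.80 ± 0.15, adjusted p = 0.0052).

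The nuclear genes of the other respiratory complexes gave counts of a similar kind. Of ATP synthase 13 of 15 were higher, with a median log2 fold change of 1.17, of complex IV 9 of 10 (1.09), of complex III 8 of 9 (0.93) and of complex II 2 of 4 (0.41), with 0 lower in each. The largest member of each list was Atp5l (1.56 ± 0.19), Cox6c (1.50 ± 0.20), Uqcrq (1.59 ± 0.16) and Sdhb (0.74 ± 0.16). At the low end were Atp5a1, a catalytic-head subunit of ATP synthase (0.32 ± 0.11, adjusted p = 0.0674), Cox6a1 (0.45 ± 0.18, 0.0904; 0.0354 with the replicate block), the complex III core protein Uqcrc2 (-0.41 ± 0.18, 0.12) and Sdha, the flavoprotein of complex II (-0.06 ± 0.13, 0.755). No difference between complexes was tested.

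**Figure D3:**
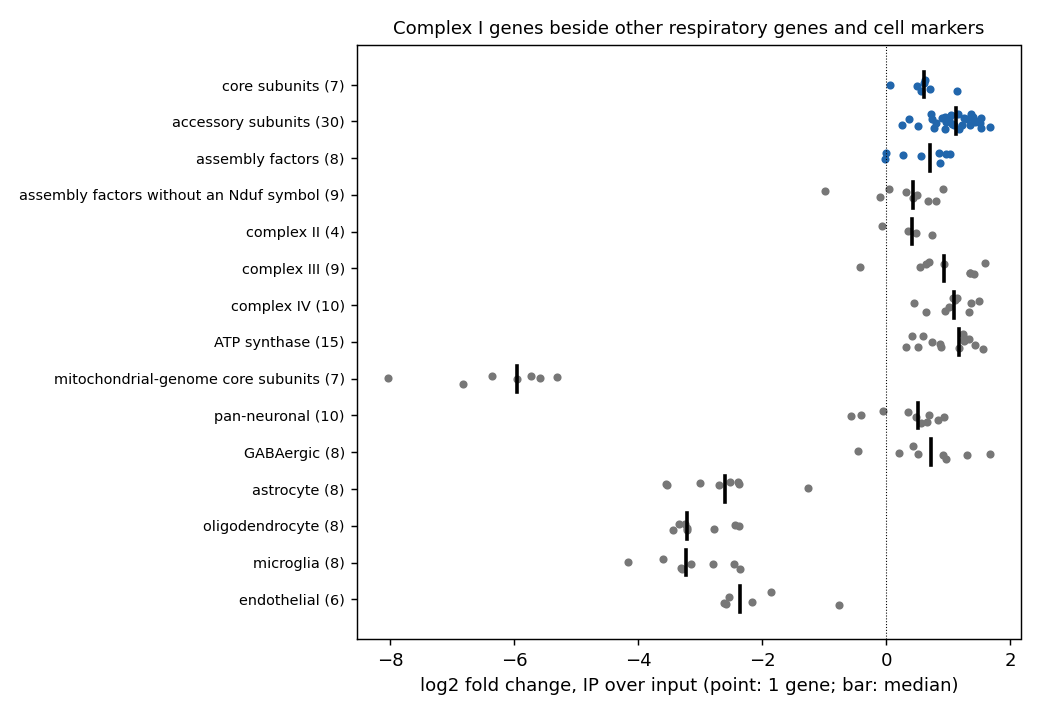
Log2 fold change, IP over input, of single genes (points) with the median (bar) for the Nduf classes, the mt-Nd genes, the other respiratory complexes and the marker lists; the number of genes is in brackets. The mt-Nd genes lie at -5.31 and below, and the nuclear respiratory lists have medians between 0.41 and 1.17.

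Cell markers moved between the fractions at the same time. Pnoc itself rose from 10.6 ± 2.88 CPM to 44.0 ± 3.39 CPM (SD, n = 3), 2.06 ± 0.22 (adjusted p = 0.000472). Pan-neuronal markers had 5 of 10 higher and 1 lower (summed level 8217 to 9629 CPM in input, 11671 to 12965 CPM in IP), and GABAergic markers 4 of 8 higher and 0 lower (1608 to 1730 CPM in input, 2095 to 3051 CPM in IP). Markers of astrocytes fell in 8 of 8 (3051 to 3662 CPM in input, 804 to 994 CPM in IP), of oligodendrocytes in 8 of 8 (5108 to 6501 CPM, 683 to 1001 CPM), of microglia in 8 of 8 (175 to 205 CPM, 17.6 to 26.8 CPM) and of endothelium in 5 of 6 (13.2 to 20.9 CPM, 3.56 to 4.31 CPM). None of the 49 marker genes was at 0 in a library. Their part in the difference of the Nduf genes was not tested, and a larger share of a cell type and more RNA per cell cannot be told apart in such libraries.

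The Nduf genes are short, and among the tested protein-coding genes the log2 fold change tended to fall with length. The median coding length of the canonical transcript was 504 bases for the Nduf genes (420 for accessory subunits, 772.5 for assembly factors, 1059 for core subunits) and 1401 bases for all protein-coding genes. The total exon length listed in the table gave the same order, with medians of 1234 bases for accessory subunits, 1802 for assembly factors, 2178 for core subunits and 4426 for protein-coding genes. Across genes, the log2 fold change and the coding length had a Spearman correlation of -0.613 in the 47 Nduf genes, -0.702 in the 37 nuclear subunits and -0.307 in 14890 protein-coding genes. With the listed exon length the values were -0.453, -0.498 and -0.258. Genes share libraries and are not independent replicates, and no p is given.

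Within a band of coding length the Nduf genes were compared with the other protein-coding genes. Below 500 bases 22 of 23 Nduf genes were called higher with a median log2 fold change of 1.30, and 37.9% of 1202 other genes with a median of 0.50. From 500 to 1000 bases it was 12 of 15 with 0.77, and 23.8% of 3373 with 0.18. Both columns fell as the length rose, and the Nduf median was the higher of the pair in each band. From 1000 to 2000 bases the figures were 4 of 8 with 0.53, and 12.2% of 5732 with -0.07. Ndufs1, with 2181 coding bases the longest of the family and the 1 member above 2000 bases, had 0.07, where 3430 other genes had a median of -0.28. By listed exon length the medians did not fall steadily. The Nduf genes had 0.585 from 2000 to 4000 bases (12 genes) and 1.02 from 4000 bases on (5 genes). The other genes had 0.41 below 500 bases (31 genes) and 0.62 from 500 to 1000 bases (286 genes).

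The comparison was also made with other genes limited in length and level. Other genes within the interquartile range of the Nduf genes in listed exon length had a median log2 fold change of 0.27 (3067 genes, 24.9% called higher). Those also within the interquartile range in mean CPM had 0.60 (346 genes, 55.5% called higher), beside 0.96 for the Nduf genes. By class the medians were 1.13 against 0.63 for accessory subunits (196 other genes), 0.71 against 0.39 for assembly factors (538) and 0.61 against 0.60 for core subunits (58). The core median thus lay beside that of the other genes, and the other classes had the higher median of the pair. Each Nduf median covers all tested members, also those outside the ranges set for the other genes. The mean CPM includes the IP libraries, so that the limit on level is not independent of the fold change. Median GC content was 51.3% for the Nduf genes and 50.4% for protein-coding genes, and by class it was 53.9% for core subunits, 51.6% for accessory subunits and 47.5% for assembly factors.

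A correction of each library for the length and GC content of the canonical transcript was added after the data had been seen. It left 34 Nduf genes called higher, against 13.8% of the 18543 genes in that fit. The median log2 fold change became 0.99 for accessory subunits, 0.51 for assembly factors and 0.32 for core subunits. Ndufs7 (0.69, adjusted p = 0.0166) kept its call, and Ndufs8 (0.31, 0.183), Ndufv1 (0.28, 0.143), Ndufb8 (0.34, 0.124) and Ndufb10 (0.33, 0.0714) lost theirs. The calls of core subunits went from 5 to 3, of accessory subunits from 28 to 26, and of assembly factors stayed at 4. A correction for the listed exon length alone left 38 called, with a core median of 0.52. Over all genes tested it gave 2804 higher, beside 2400 in the main fit. These corrections differ in the length used as well as in GC content, so the step between them is not that of GC alone.

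**Figure D4:**
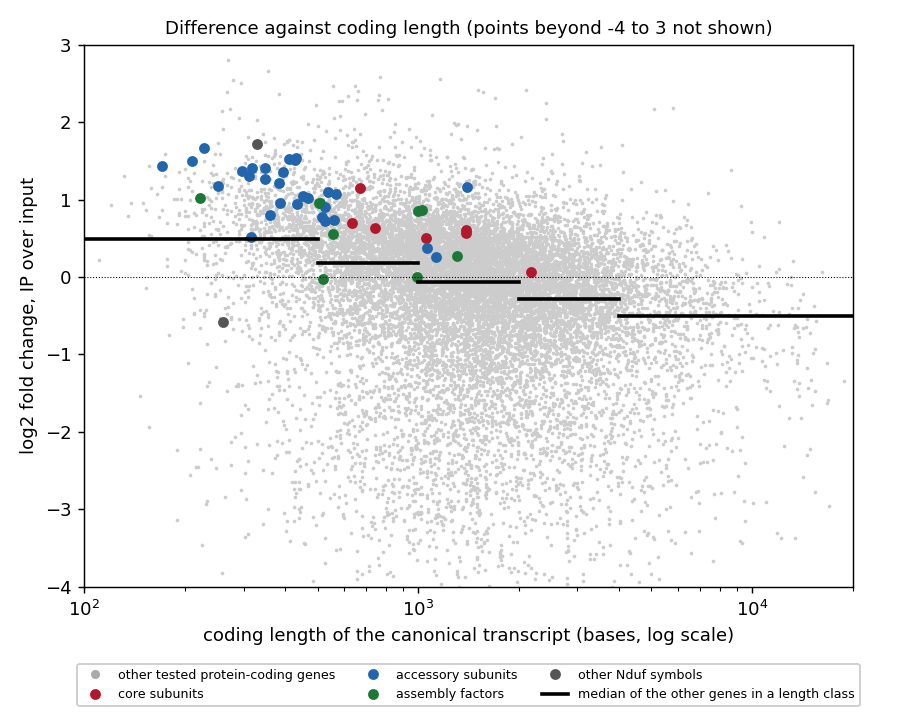
Log2 fold change, IP over input, against the coding length of the canonical transcript (bases, log scale) for the tested protein-coding genes (grey) and the Nduf genes by class (coloured). Both decline with length, and the 23 Nduf genes below 500 bases have a median of 1.30.

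Levels between genes were compared on the deposited FPKM scale (fragments per kilobase of the listed exon length, scaled by library size). In input the mean FPKM of core subunits ran from 15.7 (Ndufs1) to 117 (Ndufv2) with a median of 76.8, of accessory subunits from 5.14 (Ndufb2) to 173 (Ndufa8) with a median of 56.1, and of assembly factors from 7.49 (Ndufaf6) to 27.7 (Ndufaf5) with a median of 15.4. In IP the medians were 127, 133 and 16.8 FPKM. Core and accessory subunits thus had like medians on ribosomes, and assembly factors had the lowest median in each fraction. Ndufs5, a small membrane subunit, was the highest subunit in IP with 380 FPKM, and Ndufa4 the highest of the family with 490 FPKM in IP and 146 FPKM in input. The listed length covers the exons of every transcript and is far above the main transcript for some members. For Ndufb7 it is 4522 bases against 623, and its input level is 20.7 FPKM on the listed length and 153 CPM per kilobase of the main transcript, so that the order of levels depends on the length used.

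**Figure D5:**
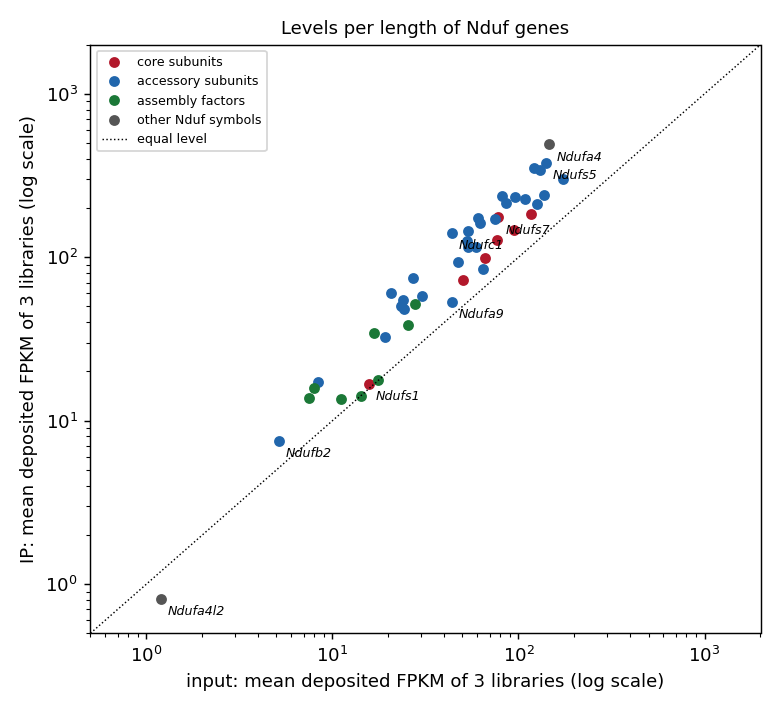
Mean deposited FPKM of 3 IP libraries against that of 3 input libraries (both log scales) for each tested Nduf gene, coloured by class; the dotted line marks equal levels. Most genes lie above the line, with Ndufa4 highest at 490 FPKM in IP, and Ndufa4l2 lies below it at 0.812 FPKM in IP and 1.19 FPKM in input.

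Reads may be shared with other genes. Exons of 31 of the 48 members overlap those of another gene in GENCODE M39, 23 of them a protein-coding gene, and whether the counting used strand is not given in the sources used here. The 23 with a protein-coding overlap had 18 calls and a median log2 fold change of 1.07, and the other 24 tested had 20 calls and 0.93. Partners did not follow one direction: Prkd3, across from Ndufaf7, had -2.93, while Eef1b2, across from Ndufs1, had 0.86. Some overlaps lie on the member's own strand, where strand would not separate the reads. Yjefn3, on the strand of Ndufa13, had 1.51, beside 1.53 for Ndufa13. Ndufc1 overlaps the processed pseudogene Gm9442 on its own strand. Processed pseudogenes with an Nduf symbol are not members but resemble their parents in sequence. Ndufs5-ps (1.28), Ndufab1-ps (1.18) and Ndufs6b (1.77) were called higher, and Ndufb4c (0.75, adjusted p = 0.125) and Ndufa12-ps (0.34, 0.733) were not. The values of Ndufs5, Ndufab1, Ndufs6, Ndufb4 and Ndufa12 are uncertain to the extent that such copies take reads from them or give reads to them.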

How the data were processed

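Sample titles gave the group and replicate of each library. The submitters' processing notes name HISAT2, featureCounts and DESeq2, and the build mm39; their versions are not given in the sources used here. The deposited table holds read counts per gene, a normalised signal (the authors' counts divided by 1 size factor per library, constant over genes within 1e-06), FPKM values made by the authors with the listed gene length, and the authors' deposited log2 fold changes and p-values; genes in it have at least 2 counts in total. Its gene annotation columns (other) were deposited by the authors, with coordinates on mm39. Of its identifiers 27576 were found in GENCODE M39, and 69 entries repeat a symbol.

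The counts were tested with edgeR 4.0.16 in R 4.3.3 (glmQLFit and glmQLFTest, TMM, filterByExpr, group as the one factor, two-sided, Benjamini-Hochberg adjustment over 18640 genes, threshold 0.05). CPM use TMM-scaled library sizes, and the SE is the size of the log2 fold change over the square root of F. A check of the test on simulated counts drew genes and libraries independently, so it cannot show how the test behaves with shared pools. An IP and an input library of 1 number share a pool, per the series' design text. Their deviations from the group means correlated at 0.264, 0.144 and 0.102, and those of other pairs of libraries at -0.22 to 0.092. Replicates are pools of 3 animals. The main fit does not use the shared pool, so that its p-values measure the spread between the libraries of a fraction. With the replicate block they measure how the difference between fractions varied over the pools. Alternatives were DESeq2 1.42.0, RLE factors, library totals alone, the replicate block and libraries left out. There were also 2 other filters (none, or a minimum of 1 CPM in each library of 1 group). A gene length correction used the listed exon length in a spline of 4 degrees of freedom. Corrections for the length and GC content of the canonical transcript were added after seeing the data.

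The members and the lists were chosen with earlier results of these data known. All members could be named; values in every library are given for 6 core subunits, the 3 highest and 3 lowest accessory subunits, the 2 highest and 2 lowest assembly factors, Ndufa4 and Ndufa4l2. The values of 1 core subunit are not reported here, although it is part of the counts and medians. Outside the members the rule takes the mt-Nd genes, the highest and lowest gene of each pathway list, and Pnoc; Ndufaf3, Ecsit, the overlapping genes and the pseudogenes were named after their values were seen. Promoter windows were read from RefSeq (GRCm38.p6), and 4 motifs were searched on both strands. Of 30 symbols listed for ATP synthase, older and newer names together, 15 were in the table; Coa1 was not used here.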

Additional observations from a re-analysis of the deposited data

How the results depend on the processing

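With the replicate block 2838 genes were higher and 3617 lower (2400 and 3191 without it), and 41 Nduf genes were higher; it changed no Nduf call beyond the 3 added. Leaving out 1 library gave 1417 to 2630 genes higher and 2035 to 3080 lower, 29 to 40 Nduf genes higher and 0 lower, and medians of 0.80 to 1.15 (all Nduf), 0.47 to 0.79 (core), 0.95 to 1.32 (accessory) and 0.50 to 0.90 (assembly). Without replicate 1 of both groups 2041 genes were higher and 2808 lower, with 33 Nduf genes higher. Without replicate 2 of both groups 1508 were higher and 2095 lower, with 34 Nduf genes higher. Without replicate 3 of both groups the numbers were 133 and 742, with 5 Nduf genes higher. In each of these fits 2 libraries per group remain, so the lower number of libraries is common to them. Length and GC correction moved the core median from 0.61 to 0.32, and to 0.33 with the replicate block. Ndufaf4, at -0.03 in the main fit, was at 0.39 under that correction with the block and at 0.66 with the mean change also set to 0, past the threshold in both; the cause was not tested. That last setting shifts the median of all genes by 0.32 and gave 5082 genes higher and 2216 lower (69.6% of calls higher, 42.9% in the main fit) and 44 Nduf genes higher. Library totals alone shift it by -0.11 and gave 1734 and 3678 (32.0% higher), with 34 Nduf genes higher and 0 lower; Ndufs8, Ndufv1, Ndufv2 and Ndufaf6 lost their calls. Of 939 values of single Nduf genes under the alternatives, 833 stayed on the same side of the threshold and 86 lost the call. A further 18 gained it, and 2 passed the threshold with the sign reversed. The 833 include values without a call whose sign changed, such as Ndufaf4 under the length and GC correction without the block. Depth limits Ndufa4l2, which has 18 to 141 counts per library, and Ndufb11b.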
